A study of Mus musculus with 16 samples.

Results

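Leukaemic T cells from mice on a diet with 0.4 g/kg valine were compared with those from mice on the control diet with 8 g/kg valine in total RNA, the fraction that measures mRNA abundance. The 10054 genes described here are those with a mean of at least 1 FPKM over the 8 total RNA libraries of the series, out of 12012 in the deposited table. FPKM counts sequenced fragments for each kilobase of a gene and corrects for the size of the library. The other 1958 genes lay below that limit. Just inside it was 1110032A03Rik with a mean of 1.0009 FPKM, from 3 and 1 reads at 0.4 g/kg and 5 and 3 at 8 g/kg. Just outside it was Igsf9 with a mean of 0.999 FPKM, from 6 and 2 reads at 0.4 g/kg and 7 and 0 at 8 g/kg.

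The mice were of the C57BL/6 strain. Every mouse in both groups carried T-ALL, an acute leukaemia of T cell precursors, as a secondary transplant. The leukaemia was driven by NOTCH-ΔE, a truncated and constantly active Notch receptor. The comparison thus has no group of normal T cells. After 3 weeks on the diet, GFP-positive leukaemic cells were sorted from the spleen. Each diet gave 2 libraries per fraction, named T-ALL 2 and T-ALL 3, and diets with 0 and 0.8 g/kg valine completed the series. Doses are given per kg of diet in the sample characteristics, while the treatment protocol speaks of valine in drinking water. The labels do not say whether the T-ALL numbers mark primary tumours, recipient mice or both, so the p-values below measure only the spread between these samples.

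Valine is an essential branched-chain amino acid. When a cell runs short of an amino acid, uncharged tRNAs activate the kinase GCN2, which phosphorylates the initiation factor eIF2. General translation then falls, while translation of the transcription factor ATF4 increases. ATF4 induces genes for amino acid synthesis, amino acid uptake, tRNA charging and one-carbon metabolism. The series title ties valine supply in T-ALL to complex I, the NADH dehydrogenase of the mitochondrial respiratory chain. Most of its subunits are encoded in the nucleus, and a core set is encoded in mitochondrial DNA (mtDNA). The comparison asks which mRNAs differ when valine is reduced but not removed.

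Reads per gene were recovered from the FPKM values. The 0.4 g/kg libraries held 1082650 reads (T-ALL 2) and 746936 reads (T-ALL 3), and the control libraries held 1269364 and 846162. The 8 total RNA libraries ranged from 364685 to 1269364 reads, with 7.64% to 15.7% of the table's genes at 0 reads and 8.04% to 9.01% of reads in the 10 most abundant genes. No pair of libraries was identical. T cell markers were present at unequal levels. Of the coreceptor genes, Cd4 was at 5.26 and 4.71 FPKM at 0.4 g/kg and 3.38 and 3.75 at 8 g/kg, from 16, 10, 12 and 9 reads. Cd8a was at 14.4 and 10.8 FPKM against 10.6 and 7.87, and Cd8b1 at 49.6 and 44.4 against 40.1 and 54.1. Cd3d, a chain of the T cell receptor complex, stood at 388 and 366 FPKM at 0.4 g/kg and 385 and 483 at 8 g/kg, and the surface glycoprotein gene Thy1 at 321 and 306 against 328 and 346.

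No gene passed the test. limma's Benjamini-Hochberg adjusted p was 1 for all 10054 genes, so 0 genes (0%) were called. At an unadjusted limma p under 0.05 there were 311 genes, where 502.7 would come by chance, with 160 higher (1.59%) and 151 lower (1.5%) at 0.4 g/kg. The split was 198 higher and 120 lower when each library was centred on its median. limma's voom model on the recovered reads also called 0 genes, with 513 at an unadjusted p under 0.05. The 311 genes became 165 without the 0.4 g/kg T-ALL 3 library and 167 without the T-ALL 3 control. Both libraries at 0.4 g/kg lay above both controls for 1850 genes (18.4%) and below both for 1908 genes (19%). These percentages are the background against which the counts of gene lists below are to be read.

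Across all genes the differences between diets were nearly uncorrelated between the T-ALLs. The median log2 difference (0.4 minus 8 g/kg, on the log2(FPKM + 0.5) scale throughout) was −0.01 in T-ALL 2 and −0.01 in T-ALL 3. Its SD across genes was 0.62 in T-ALL 2 and 0.80 in T-ALL 3. The differences in the T-ALLs correlated across genes with a Pearson r of 0.018, a description over 10054 genes that are not independent replicates. They had the same sign in 5280 genes (52.5%). The 95% interval of a gene's difference had a median half-width of 0.84, or 0.62 for the 5530 genes with a mean of at least 10 FPKM and 1.29 for the other 4524. For 4259 genes (42.4%) the interval lay within a 2-fold difference either way. For the rest a change of 2-fold was not excluded by these libraries.

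**Figure D1:**
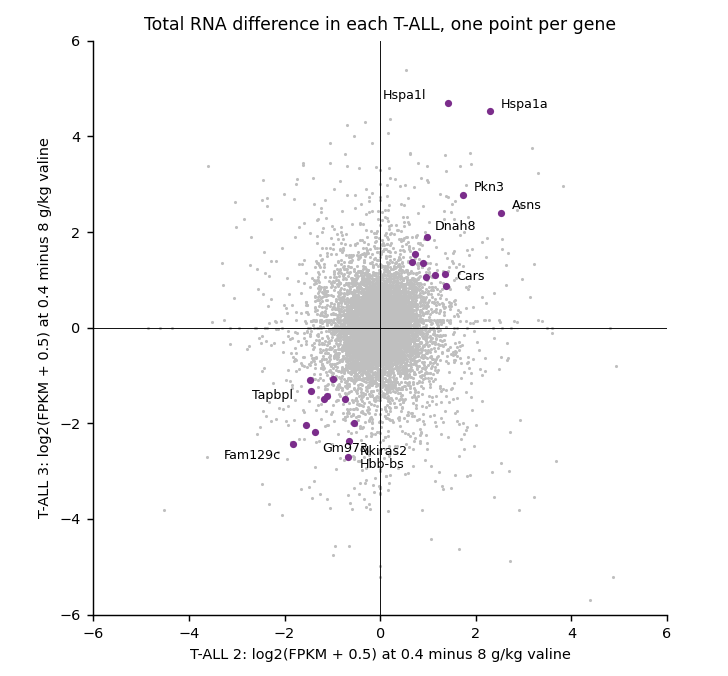
Log2 difference in FPKM between 0.4 and 8 g/kg valine in T-ALL 2 (horizontal axis) and in T-ALL 3 (vertical axis). Each of 10054 points is a gene, and purple points with names are the genes with the lowest p-values among those with large differences. The cloud is round (r = 0.018) and wider in T-ALL 3 (SD 0.80) than in T-ALL 2 (SD 0.62), and the named genes were chosen for having the same sign in both.

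Hspa1a, an inducible cytosolic HSP70 chaperone (chr17:34969359-34972156), had the largest difference among the 12 genes selected as higher, by low p-value, a difference of at least 1, a shared sign and a mean of at least 10 reads. It stood at 59.9 and 112 FPKM at 0.4 g/kg (174 and 226 reads) and at 11.8 and 4.37 at 8 g/kg (40 and 10 reads). Both low-valine libraries were above both controls. The log2 difference was 3.41 ± 0.70 (SE), with a 95% interval of 1.82 to 5.0 and a limma adjusted p of 1. At the same locus, Hspa1l (chr17:34972703-34979228), an HSP70 gene of the same cluster, was at 7.44 and 26.1 FPKM against 2.48 and 0.524, from 18, 44, 7 and 1 reads, a difference of 3.06 ± 0.65. Hspa1b, the near-identical copy of Hspa1a, had 11 and 12 reads at 0.4 g/kg and 0 in both controls, which is at least 8.86-fold higher against a floor of 3 reads over the control group. Reads of these copies may not be assigned uniquely, so the split between them is uncertain.

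Of the 12 genes selected as higher, Asns (chr6:7675165-7693209), which makes asparagine and is a classic ATF4 target, came next by size after the HSP70 pair. It stood at 22.3 and 12.3 FPKM against 3.47 and 1.93, from 44, 17, 8 and 3 reads. The difference was 2.46 ± 0.68, 2.52 in T-ALL 2 and 2.40 in T-ALL 3. The protein kinase gene Pkn3 was at 7.08 and 5.50 FPKM against 1.77 and 0.374, a difference of 2.26 ± 0.58. Cars, the cysteinyl-tRNA synthetase (chr7:143557230-143600090), was at 26.6 and 23.2 against 10.04 and 10.5, a difference of 1.24 ± 0.33 with tight replicates. Dnah8, an axonemal dynein chain, was at 7.14 and 20.6 against 3.36 and 5.15. The other 6 genes had differences of 1.003 to 1.14. Among them were the CDK4/6 inhibitor gene Cdkn2d (23.3 and 33.4 FPKM against 13.8 and 11.2), the cytokine receptor-like gene Crlf3 (26.9 and 38.5 against 16.8 and 14.6) and Bysl, which acts in small-subunit ribosome assembly (13.3 and 14.4 against 6.58 and 6.72). The remaining 3 were Emsy, a BRCA2-interacting repressor, the kinase gene Prkca, and Ahcyl2. In all 12 genes both low-valine libraries lay above both controls, as the selection for a shared sign favours.

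Among the 12 genes selected as lower, Tapbpl had the lowest p. It encodes TAPBPR, which edits the peptides bound by MHC class I, and lies at chr6:125223927-125231860. Its FPKM was 13.9 and 18.7 at 0.4 g/kg and 39.4 and 40.8 at 8 g/kg, from 32, 30, 106 and 74 reads. The groups were well apart, and the difference was −1.29 ± 0.22 (95% interval −1.80 to −0.78, limma adjusted p of 1). Gm973, a predicted gene, was at 3.13 and 2.85 FPKM against 8.76 and 14.8. Sergef was at 4.18 and 2.0 against 13.1 and 9.73. Nkd1, an inhibitor of Wnt signalling through Dishevelled, was at 2.75 and 3.23 against 8.36 and 8.89, a difference of −1.39 ± 0.38. Fam129c had the largest negative difference of the 12, −2.14 ± 0.60, from 2.16 and 0.517 FPKM against 8.95 and 5.03.

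Of the remaining genes with lower values, 3 encode enzymes. Asah1, the lysosomal acid ceramidase, was at 2.21 and 2.11 FPKM against 5.36 and 6.54. Galt, of galactose breakdown, was at 8.79 and 7.88 against 15.1 and 23. Alg12, a mannosyltransferase of N-glycan assembly, was at 3.36 and 2.06 against 8.21 and 6.69. These are low-level genes whose differences, from −1.12 to −1.33, come with standard errors of 0.38 to 0.45. 2010107G12Rik, Cxx1b and Nkiras2, an inhibitor of NF-κB signalling, made up the rest with the β-globin gene Hbb-bs, which is described with the red cell genes.

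Genes of the amino acid response stood higher at 0.4 g/kg in both T-ALLs alike, although none passed the test. Of 30 tested genes of the ATF4 and amino acid response, 25 had a higher mean, 10 had an unadjusted limma p under 0.05 in that direction and 0 in the other. Both low-valine libraries were above both controls in 19 and below both in 2. The median difference was 0.45 (0.46 in T-ALL 2 and 0.47 in T-ALL 3), against −0.01 over all genes tested. All 36 list members in the table, tested or not, took 35.6 and 34.7 of 10000 reads at 0.4 g/kg and 27.2 and 26.3 at 8 g/kg. Both T-ALLs thus differed by a similar amount.

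Promoter sequences are shown for the 3 members with an unadjusted limma p under 0.05 whose promoter holds the C/EBP-ATF response element. That element is the composite site that ATF4 binds with C/EBP partners. The mRNAs of these 3 members were higher in both T-ALLs. Each run is the 150 bases before the start in RefSeq's promoter table (GRCm38.p6), written 5′ to 3′ on the strand of the gene, with the match to TGATGNAAN or its reverse complement in capitals. The windows are chr6:7693210-7693359 on the minus strand for Asns, chr6:55037851-55038000 on the plus strand for Gars and chr14:55540116-55540265 on the plus strand for Pck2.
Asns: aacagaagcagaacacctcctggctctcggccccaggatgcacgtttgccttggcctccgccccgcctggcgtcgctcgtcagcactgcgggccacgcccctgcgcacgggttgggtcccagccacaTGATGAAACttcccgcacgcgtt
Gars: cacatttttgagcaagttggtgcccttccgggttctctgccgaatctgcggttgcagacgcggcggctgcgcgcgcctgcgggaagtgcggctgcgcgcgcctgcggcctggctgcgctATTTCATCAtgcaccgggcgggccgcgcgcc
Pck2: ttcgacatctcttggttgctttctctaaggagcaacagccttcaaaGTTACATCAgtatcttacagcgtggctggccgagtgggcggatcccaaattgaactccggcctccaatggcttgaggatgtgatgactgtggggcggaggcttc
The motif was searched on both strands. It occurred in 6 of the 27 tested list members with an entry in the table (Asns, Gars, Got1, Jdp2, Pck2 and Pycr1) and in 2.22% of 32851 promoters of the same length. The match in Asns starts 23 bases before the start site and overlaps a match to GAANNTTC, the core of the heat shock element. A match is a string of letters and was not tested for binding.

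Several members with an unadjusted p under 0.05 were enzymes of serine and one-carbon metabolism. Shmt2, the mitochondrial serine hydroxymethyltransferase, stood at 226 and 203 FPKM against 131 and 116. The groups did not overlap, and the difference was 0.79 ± 0.18 (95% interval 0.37 to 1.21). Psat1, which makes the serine precursor phosphoserine, was at 119 and 115 FPKM against 82.2 and 63.4 (0.69 ± 0.21). Mthfd2, the mitochondrial folate enzyme downstream of Shmt2, was at 70.5 and 48.5 against 34.8 and 37.9 (0.68 ± 0.25). Pck2, the mitochondrial phosphoenolpyruvate carboxykinase, was at 11.7 and 15.1 against 5.92 and 8.76 (0.84 ± 0.29). Aldh18a1, of proline synthesis, was also among the 10 genes with an unadjusted p under 0.05.

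The regulators of the response had mixed values. Atf5, an ATF4-related transcription factor, was at 26.4 and 21.0 FPKM against 7.22 and 11.4 (1.33 ± 0.56). Atf4 itself was at 63.4 and 94.3 against 54.3 and 60.1 (0.43 ± 0.35), above both controls in both libraries but with an interval that includes 0. Ppp1r15a, the eIF2 phosphatase subunit GADD34, was at 18.2 and 28.2 against 19.9 and 10.1, which is −0.13 in T-ALL 2 and 1.43 in T-ALL 3. Ddit3, which encodes the stress factor CHOP, was at 7.38 and 9.07 against 7.22 and 10.7 (−0.10 ± 0.99), with overlapping groups. Trib3, a pseudokinase induced by ATF4 and CHOP, had only 1 and 3 reads against 3 and 1.

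**Figure D2:**
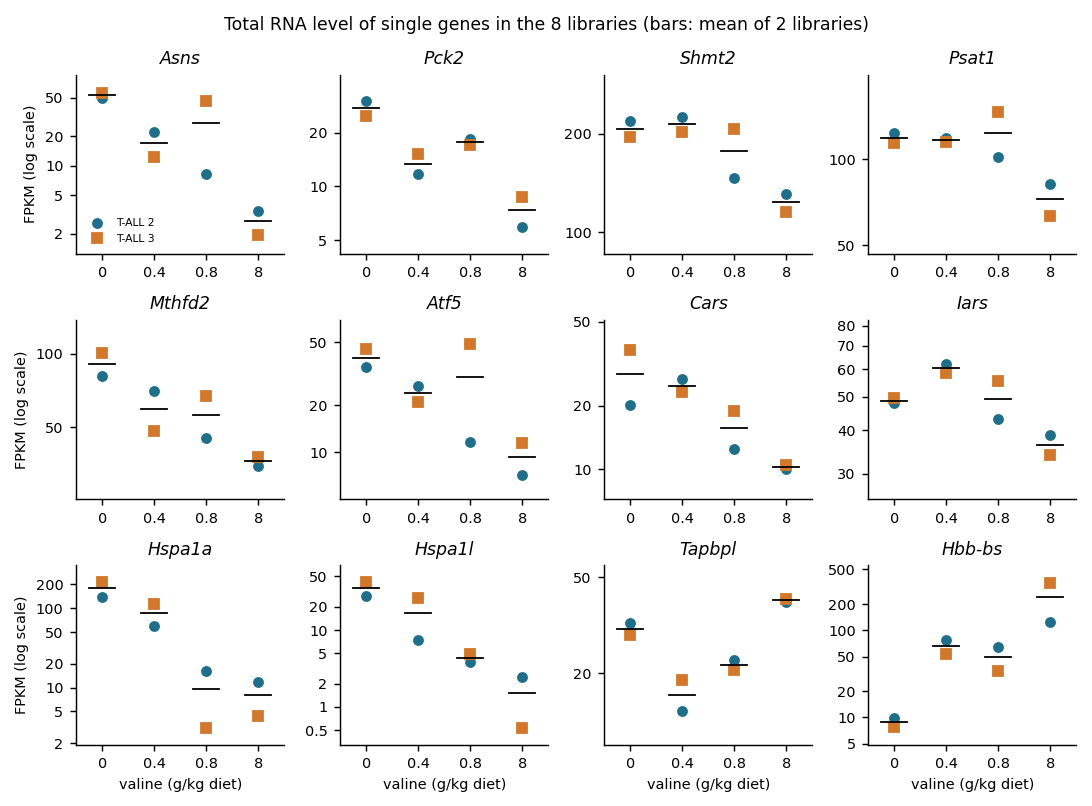
FPKM on a log axis for 12 genes by diet (0, 0.4, 0.8 and 8 g/kg valine), with circles for T-ALL 2, squares for T-ALL 3 and a bar at the mean of the pair. At 0.4 g/kg Asns lay at 22.3 and 12.3 FPKM, between its controls at 3.47 and 1.93 and the valine-free diet at 49.8 and 56.2, while Tapbpl lay below the libraries of every other diet.

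Aminoacyl-tRNA synthetases, which load amino acids onto tRNAs, gave 14 of 20 tested genes with a higher mean, 7 with an unadjusted limma p under 0.05 and 0 lower. Their median difference was 0.11. The list shares Cars, Gars and other members with the ATF4 list and is not separate evidence. Iars, for isoleucine, was at 62.1 and 58.6 FPKM against 38.7 and 33.9 (0.73 ± 0.19). Sars, for serine, was at 90.7 and 89.8 against 64.7 and 57.3 (0.56 ± 0.17), and Gars, for glycine, at 179 and 177 against 135 and 139 (0.38 ± 0.15). Vars, the synthetase for valine itself, stood at 173 and 171 FPKM at 0.4 g/kg and at 175 and 160 at 8 g/kg, with overlapping groups and a difference of 0.04 ± 0.13. Its 95% interval of −0.26 to 0.35 lay well within a 2-fold difference either way. Without the T-ALL 3 control the median of the list was 0.071.

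Genes of amino acid sensing, amino acid transport and branched-chain amino acid breakdown showed no common direction. Of 29 tested genes of the eIF2 kinases and amino acid sensing, 17 had a higher mean, 0 had an unadjusted p under 0.05 upward and 1 downward. That gene was Lamtor4, a subunit of the Ragulator scaffold that brings mTORC1 to the lysosome, at 11.5 and 20.9 FPKM against 24.1 and 33.0 (−0.84 ± 0.34). Of 11 amino acid transporters 7 had a higher mean, 0 had an unadjusted limma p under 0.05, and 3 lay above both controls and 3 below both. Slc7a5, which carries branched-chain amino acids, was at 60.7 and 41.6 against 51.2 and 47.1 (0.03 ± 0.28), whereas its heavy chain Slc3a2 was at 85.0 and 86.4 against 68.1 and 60.8 (0.41 ± 0.18). Of 25 genes of branched-chain amino acid breakdown, 12 had a higher mean and the median difference was −0.02. Bcat1, the cytosolic transaminase, was at 4.82 and 2.62 against 1.23 and 2.15, and Bckdha, of the ketoacid dehydrogenase, at 22.1 and 30.1 against 44.2 and 31.4.

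Chaperones of the cytosol and of the endoplasmic reticulum also had more members with higher values. Of 22 tested heat shock genes, 18 had a higher mean, 5 had an unadjusted limma p under 0.05 upward and 0 downward, and 12 lay above both controls against 1 below. The median difference was 0.20 in T-ALL 2 and 0.18 in T-ALL 3. Hsph1, a partner of HSP70, was at 19.1 and 26.1 FPKM against 14.7 and 9.52 (0.89 ± 0.31). The share of reads in the whole list was 117 ± 0.3 of 10000 (SD, n = 2) against 115 ± 7.76, a gap smaller than the spread between the controls.

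The promoter of Hspa1a is shown because it carries a heat shock element core, and it stands for Hspa1b as well, whose window was identical at 149 of 150 bases. The window is chr17:34972157-34972306 on the minus strand (RefSeq promoter table, GRCm38.p6), with the match to GAANNTTC in capitals.
Hspa1a: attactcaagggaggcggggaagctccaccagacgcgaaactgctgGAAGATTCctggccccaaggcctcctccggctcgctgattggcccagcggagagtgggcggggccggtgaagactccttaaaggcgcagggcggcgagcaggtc
This motif was found in 5 of the 18 heat shock members with an entry in the table (Dnaja1, Hspa1a, Hspa1b, Hspd1 and Hspe1) and in 3.95% of all 32851 promoters. It is its own reverse complement, so both strands give the same matches.

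In the endoplasmic reticulum list, 17 of 24 genes had a higher mean, with 3 at an unadjusted limma p under 0.05 upward and 1 downward. Hsp90b1, the chaperone GRP94, was at 203 and 224 FPKM against 128 and 143 (0.65 ± 0.16). Pdia6, a disulfide isomerase, was at 75.6 and 85.5 against 46.6 and 53.6 (0.68 ± 0.18), and Hyou1, another luminal chaperone, at 53.1 and 53.2 against 43.0 and 30.5 (0.55 ± 0.22). Herpud1, which serves the degradation of misfolded proteins, went the other way, at 6.80 and 12.8 against 19.3 and 19.2 (−1.01 ± 0.37). The list took 46.3 and 48.6 of 10000 reads at 0.4 g/kg and 40.7 and 41.4 at 8 g/kg. Its median difference of 0.16 became 0.063 without the T-ALL 3 control.

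Immediate early genes, which respond within minutes to stimulation or handling of cells, had opposite medians in the T-ALLs, a split that was not tested. Of 20 tested, 16 had a higher mean and 5 lay above both controls, but the median difference was −0.19 in T-ALL 2 and 0.83 in T-ALL 3. Fos was at 10.7 and 21.5 FPKM against 14.5 and 4.30, which is −0.43 in T-ALL 2 and 2.20 in T-ALL 3. Jun was at 45.8 and 83.6 against 42.2 and 30.1 (0.79 ± 0.29). Egr1 was at 14.4 and 21.6 against 16.8 and 12.1 (0.29 ± 0.44). The list took 9.59 and 14.5 of 10000 reads at 0.4 g/kg and 11.3 and 7.71 at 8 g/kg, so the groups overlapped. The median over both T-ALLs, 0.33, became 0.070 without the T-ALL 3 control. The part of cell handling in these values and in those of Hspa1a was not tested.

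Genes of mitosis had higher values in nearly the whole list, with small differences. Of 34 tested genes, 33 had a higher mean at 0.4 g/kg, 19 lay above both controls and 0 below both, and 2 had an unadjusted limma p under 0.05. The median difference was 0.31, with 0.46 in T-ALL 2 and 0.18 in T-ALL 3. The list took 52.5 and 48.8 of 10000 reads at 0.4 g/kg against 37.9 and 43.1 at 8 g/kg. Cdk1, the kinase that drives entry into mitosis, was at 49.5 and 51.8 FPKM against 36.4 and 30.1 (0.61 ± 0.22). Anln, which encodes the cytokinesis protein anillin, was at 13.4 and 13.2 against 7.58 and 8.36 (0.71 ± 0.28). Top2a, which untangles sister chromatids, was at 251 and 224 against 185 and 192 (0.33 ± 0.15), and Plk1, a mitotic kinase, at 59.0 and 68.6 against 34.6 and 48.3 (0.63 ± 0.30). In a bulk sample, more cells in a phase and more mRNA per cell cannot be told apart.

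DNA replication and histone genes had higher values mainly in T-ALL 2, a split that was not tested. Of 41 S phase genes, 28 had a higher mean, 13 lay above both controls and 2 below, and the median difference was 0.28 in T-ALL 2 and −0.04 in T-ALL 3. Without the 0.4 g/kg T-ALL 2 library the median of the list was −0.033. Gins3, of the replicative helicase, was at 5.08 and 7.29 FPKM against 1.45 and 2.15 (1.54 ± 0.49), and Cdc6, which loads that helicase, at 19.8 and 17.1 against 12.8 and 9.44 (0.72 ± 0.27). Rrm2, the ribonucleotide reductase subunit of S phase, was at 143 and 125 against 90.5 and 99.2 (0.49 ± 0.15). Of 61 replication-dependent histone genes, 51 had a higher mean, 25 lay above both controls and 2 below, and 5 had an unadjusted p under 0.05 upward. Their median difference was 0.39 in T-ALL 2 and −0.05 in T-ALL 3, and they took 428 and 377 of 10000 reads against 326 and 399. The median over both T-ALLs, 0.16, became 0.034 without the T-ALL 2 control. Hist1h3d was at 330.1 and 303 FPKM against 180 and 194 (0.76 ± 0.19). Histone genes are close copies, so single members are uncertain. Of 33 nucleotide synthesis genes 23 had a higher mean, with a median difference of 0.08.

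Complex I subunit mRNAs lay close to their control levels. Of 36 tested nuclear subunit genes, 20 had a higher mean and 16 a lower one. One had an unadjusted limma p under 0.05 in each direction, 8 lay above both controls and 7 below, and the median difference was 0.03 (0.00 in T-ALL 2 and −0.01 in T-ALL 3). For 32 of the 36 the 95% interval lay within a 2-fold difference. The list took 31.8 and 32.3 of 10000 reads at 0.4 g/kg and 31.9 and 32.3 at 8 g/kg, with each pair nearly equal. Single differences ran from −0.47 to 0.60.

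Subunits of the catalytic core of complex I did not share a direction. Ndufs1, which carries iron-sulfur clusters, was at 36.5 and 43.5 FPKM against 38.8 and 37 (0.07 ± 0.26). Ndufs8, another iron-sulfur subunit, was at 98.6 and 103 FPKM against 116 and 109 (−0.16 ± 0.14). Ndufv1, which binds NADH, was at 119 and 102 against 137 and 138 (−0.32 ± 0.14), and like Ndufs8 it lay below both controls. The accessory membrane-arm subunit Ndufb8 was at 77.2 and 73.8 against 72.3 and 58.7 (0.21 ± 0.19). The accessory subunits Ndufa6 and Ndufa2 were the pair with an unadjusted p under 0.05. Ndufa6 was at 217 and 222 against 189 and 139 (0.44 ± 0.17), and Ndufa2 went the other way at 195 and 179 against 231 and 254 (−0.37 ± 0.15).

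Of the complex I subunits encoded in mtDNA, 5 of 7 had a higher mean, and the 95% intervals of all 7 lay within a 2-fold difference. mt-Nd3 was at 382 and 379 FPKM against 256 and 301 (0.45 ± 0.16), and mt-Nd4l at 1090.2 and 1021 against 833 and 829 (0.34 ± 0.12). mt-Nd1 was at 2765 and 2536 against 3290.3 and 2929 (−0.23 ± 0.18). All 13 mtDNA-encoded mRNAs together took 317 ± 10.7 (SD, n = 2) of 10000 reads on 0.4 g/kg, against 310 ± 9.55 in the controls, a gap smaller than the spread within a diet.

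Most assembly factors of complex I had lower means, on few reads. Of 15 tested, 4 had a higher mean and 11 a lower one. Of these genes 0 lay above both controls and 2 below both, where 18.4% and 19% of all genes did. The median difference was −0.30 (−0.29 in T-ALL 2 and −0.13 in T-ALL 3), or −0.147 without the 0.4 g/kg T-ALL 2 library and −0.20 without the 0.4 g/kg T-ALL 3 library. The 95% interval lay within a 2-fold difference for 2 of 15. The list took 2.72 and 2.65 of 10000 reads against 3.135 and 3.20. Ndufaf2, an assembly chaperone of the complex, was the only member with an unadjusted limma p under 0.05. It was at 15.0 and 15.1 FPKM at 0.4 g/kg and 29.6 and 22.9 at 8 g/kg, from 10, 7, 23 and 12 reads (−0.77 ± 0.22). It was at 34.1 and 32.0 FPKM at 0 g/kg and 33.1 and 31.3 at 0.8 g/kg, so the 0.4 g/kg libraries were the lowest of the 8.

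**Figure D3:**
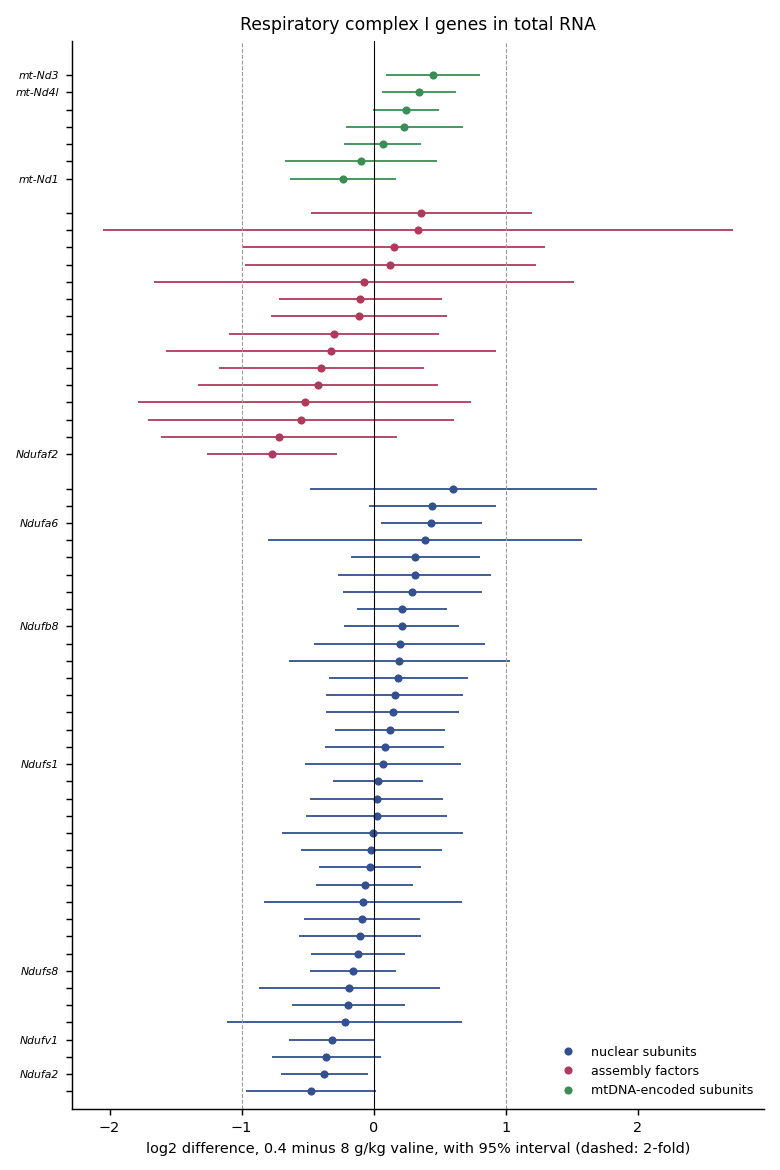
Log2 difference in FPKM between 0.4 and 8 g/kg valine for 58 complex I genes, with 95% intervals, in the groups of 36 nuclear subunits, 15 assembly factors and 7 mtDNA-encoded subunits, and names beside the axis mark the genes with values in the text. Most subunits sit within a 2-fold difference either way, whereas the intervals of assembly factors are wide and their median is −0.30.

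The other respiratory chain genes were mixed in the direction of their means, but more lay below both controls than above both. The mean was higher in 5 of 13 tested genes of complexes II and III, with a median of −0.07. It was higher in 8 of 16 genes of complex IV (−0.06) and in 9 of 17 of the ATP synthase (0.02). In the same order, 5, 6 and 7 genes lay below both controls and 3, 2 and 1 above both. Of all genes, 19% lay below both and 18.4% above both. Cox5b of complex IV was at 81.5 and 84.6 FPKM against 116 and 100.3 (−0.38 ± 0.16), and was the only one of these genes with an unadjusted limma p under 0.05. The mean was lower in 15 of 20 glycolysis genes (median −0.11), in 15 of 25 genes of the tricarboxylic acid cycle (−0.06) and in 18 of 27 of cholesterol synthesis and uptake (−0.18). These medians moved with single libraries. Glycolysis ran from −0.20 without the 0.4 g/kg T-ALL 2 library to −0.071 without the T-ALL 2 control. The cycle was at 0.00072 without the 0.4 g/kg T-ALL 3 library and −0.0033 without the T-ALL 2 control. Cholesterol genes were at −0.39 without the T-ALL 3 control, −0.11 without the 0.4 g/kg T-ALL 3 library, −0.11 without the T-ALL 2 control and −0.061 at equal depth. Eno1, the glycolytic enolase, was at 386 and 343 against 490.2 and 445 (−0.36 ± 0.13). In the cholesterol list 7 genes lay below both controls and 2 above, and none had an unadjusted p under 0.05.

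**Figure D4:**
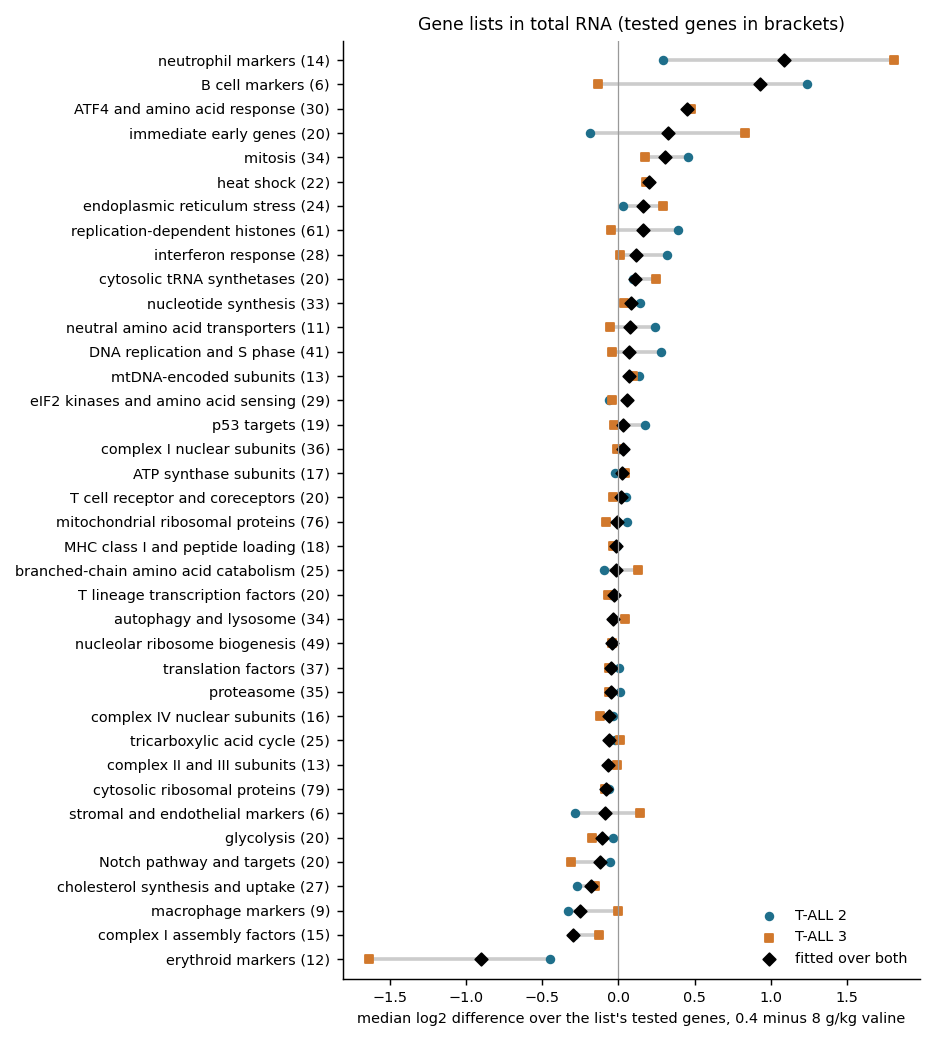
Median log2 difference between 0.4 and 8 g/kg valine for the 38 gene lists with at least 5 tested members, for the fit over both T-ALLs and for T-ALL 2 and T-ALL 3 alone. The ATF4 list stands at 0.45 with T-ALL values of 0.46 and 0.47, whereas immediate early genes (−0.19 and 0.83) and B cell markers (1.24 and −0.13) split between the T-ALLs.

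Cytosolic ribosomal protein mRNAs were slightly lower and well measured. Of 79 tested genes 58 had a lower mean, 40 lay below both controls and 6 above both, and 1 had an unadjusted limma p under 0.05. The median difference was −0.08 (−0.06 in T-ALL 2 and −0.09 in T-ALL 3), and 78 of the 79 intervals lay within a 2-fold difference. The list took 1249.9 and 1245 of 10000 reads at 0.4 g/kg and 1316 and 1319 at 8 g/kg. Rpl36 was at 2576 and 2777 FPKM against 3377 and 3757 (−0.41 ± 0.12), and the stalk protein gene Rplp0 at 5324 and 5438 against 6305 and 6078 (−0.20 ± 0.09). Many of these genes have processed pseudogenes, so their single values are uncertain.

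Mitochondrial ribosomal protein genes had no common direction, with 36 of 76 higher and a median of −0.01. The small-subunit genes Mrps28 (43.0 and 31.8 FPKM against 68.1 and 66.2) and Mrps34 (24.9 and 21.0 against 38.5 and 37.1) were among the 4 with an unadjusted limma p under 0.05, which were all lower. Of 37 translation factors 15 had a higher mean, and Eif1, which guards start codon choice, was at 239 and 222 against 176 and 156 (0.47 ± 0.17). Of 49 nucleolar ribosome biogenesis genes 22 had a higher mean, with Rrp12 at 23.2 and 23.1 against 13.4 and 16.5 (0.62 ± 0.24). Of 35 proteasome genes 14 had a higher mean, with a median of −0.05 and all 35 intervals within a 2-fold difference. Autophagy and lysosome genes were higher in 15 of 34, with a median of −0.03.

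Notch targets and T cell genes stood near their control levels or slightly below. Of 20 tested Notch pathway genes and targets, 6 had a higher mean and 14 a lower one, with medians of −0.06 in T-ALL 2 and −0.31 in T-ALL 3. They took 65.3 and 64.8 of 10000 reads at 0.4 g/kg against 65.1 and 76.4 at 8 g/kg, and the median of −0.12 became −0.002 without the T-ALL 3 control. Notch1 was at 306 and 280.1 FPKM against 275 and 369, and Dtx1, a direct Notch target, at 225 and 260.2 against 267 and 239, both with overlapping groups. Hes1, a repressor induced by Notch, was at 62.6 and 46.9 against 95.3 and 58.2 (−0.46 ± 0.26). Myc, the growth-promoting target, was the only one with an unadjusted limma p under 0.05, at 221 and 183 against 272 and 262 (−0.41 ± 0.15).

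T cell receptor genes were higher in 11 of 20 and T lineage transcription factors in 9 of 20, with medians of 0.02 and −0.03. Cd3e was at 554 and 463 FPKM against 417 and 750.4, so the low-valine libraries lay between the controls. Rag1, which cuts receptor genes during rearrangement, was at 23.2 and 17.5 against 10.1 and 47.8. Ptcra, the pre-T cell receptor alpha chain, was at 31 and 13.7 against 13.6 and 42.4. Both genes were higher at 0.4 g/kg in T-ALL 2 and lower in T-ALL 3. In the libraries at 0, 0.8 and 8 g/kg both were higher in T-ALL 3 than in T-ALL 2, and at 0.4 g/kg both were higher in T-ALL 2.

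Interferon-induced genes had a median that turned with 1 library. Of 28 interferon-induced genes 18 had a higher mean, 7 lay above both controls and 0 below, with a median of 0.12, or −0.24 without the T-ALL 2 control. Ddx58, the RNA sensor RIG-I, was at 6.59 and 14.7 FPKM against 4.52 and 3.68 (1.183 ± 0.44). MHC class I and peptide loading genes were higher in 8 of 18 and p53 targets in 11 of 19, with medians of −0.02 and 0.03, and 0 genes of either list had an unadjusted limma p under 0.05.

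Markers of other spleen cells had unequal levels in the groups, and their part in the results above was not tested. Of 14 tested neutrophil genes (17 in the table) 13 had a higher mean at 0.4 g/kg. Their median difference was 1.09, with 0.29 in T-ALL 2 and 1.81 in T-ALL 3. It was 0.32 after thinning all libraries to equal depth and 1.70 without the 0.4 g/kg T-ALL 2 library. The list took 0.379 and 0.910 of 10000 reads at 0.4 g/kg and 0.236 and 0.272 at 8 g/kg. S100a8, a neutrophil calcium-binding protein, had 3 and 9 reads against 3 and 1. Mpo, of the primary granules, had 1 and 4 reads against 0 in both controls. Lyz2, shared by neutrophils and macrophages, was at 6.45 and 5.78 FPKM against 1.38 and 0, from 8, 5, 2 and 0 reads, and Ngp, of the secondary granules, had 4 and 17 reads against 3 and 0.

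Red cell genes went the other way. Of 12 tested (18 in the table) 3 had a higher mean, and the list took 3.25 and 3.33 of 10000 reads at 0.4 g/kg against 4.20 and 6.41 at 8 g/kg. Hbb-bs, the adult β-globin gene (chr7:103826523-103827928), was at 78.1 and 53.6 FPKM against 124 and 353 (−1.68 ± 0.48), and Hba-a2, an α-globin gene, at 90.3 and 68.7 against 144 and 309 (−1.41 ± 0.76). The controls lay above both low-valine libraries, and the T-ALL 3 control was the highest. The median of the list, −0.90, became −0.52 without that library and −1.54 without the T-ALL 2 control. Globin genes are close copies, so the split between them is uncertain. Alas2, of red cell haem synthesis, had 1 and 4 reads against 3 and 5.

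The macrophage and B cell lists rested on few reads. Macrophage markers (9 tested of 16 in the table) took 0.693 and 0.897 of 10000 reads against 0.906 and 0.969, with Adgre1 at 0 and 3 reads against 2 and 2, and C1qa at 0 and 0 against 3 and 0. B cell markers (6 of 7) took 0.499 and 0.576 against 0.323 and 0.485. Natural killer cell markers (3 of 7) took 5.04 and 6.84 against 5.07 and 4.27, with the granzyme gene Gzma at 625 and 839 FPKM against 627 and 521. Stromal and endothelial markers (6 of 11) took 15.1 and 14.4 against 17.9 and 13.3, with the growth factor receptor gene Pdgfrb at 162 and 123 FPKM against 151 and 153. Gzma and Pdgfrb were thus well measured in these sorted cells, with overlapping groups. One of 4 platelet markers was tested, with a difference of 0.06. Klrb1c of natural killer cells had 0 and 3 reads against 0 in both controls, and Col1a1 of stroma 0 and 3 against 1 and 1. The defining markers Ms4a1, Ncr1, Pf4, Ppbp and Cdh5 were not analysed here.

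**Figure D5:**
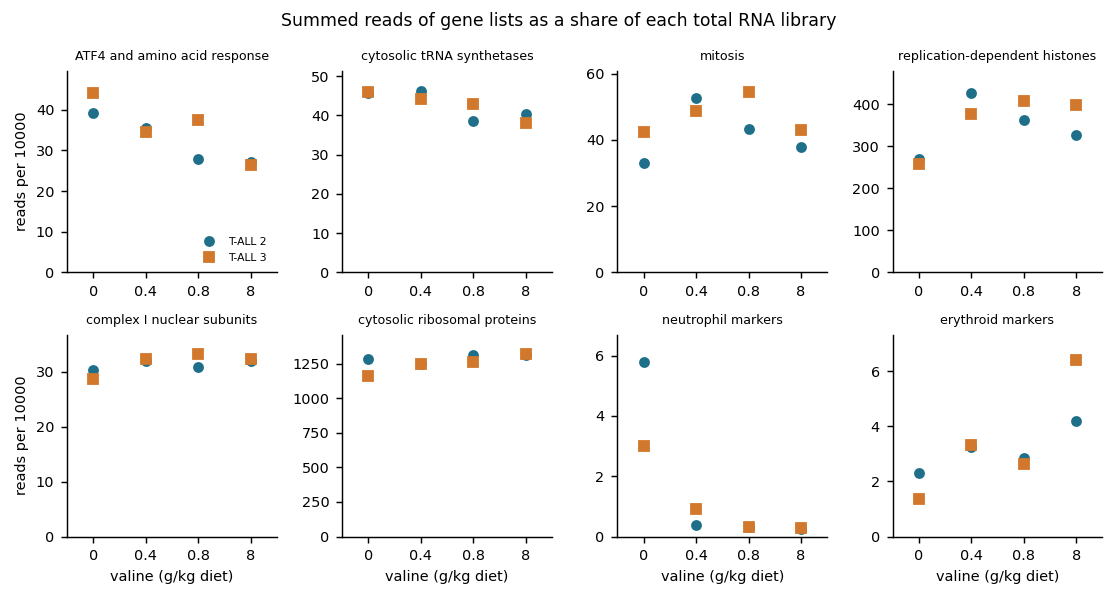
Reads per 10000 in 8 gene lists by diet in total RNA, with circles for T-ALL 2 and squares for T-ALL 3. At 0.4 g/kg the ATF4 list (35.6 and 34.7) lies above both controls (27.2 and 26.3), whereas neutrophil genes, at 0.379 and 0.910, lie far below the valine-free diet at 5.80 and 2.99.

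The 0.4 g/kg diet was also set against the valine-free diet, in the same fit and with the same low-valine libraries, so the comparisons share samples. limma called 0 genes, with a lowest adjusted p of 0.125 and 518 genes at an unadjusted p under 0.05, of which 325 were higher at 0.4 g/kg (3.23%) and 193 lower (1.92%). This balance depended on the scaling, with 271 higher and 248 lower at equal depth and the reverse balance with voom, 155 higher and 317 lower. limma's voom model called 1 gene, Hist1h3f, higher at 0.4 g/kg, and limma called 4 (Coa6, Hist1h2bn, Hist1h4b and Usmg5) when the valine-free T-ALL 2 library was left out. Both libraries at 0.4 g/kg lay above both at 0 g/kg for 1786 genes (17.8%) and below both for 1597 (15.9%).

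For the amino acid response the 0.4 g/kg libraries stood between the control and the valine-free diet. The ATF4 list took 39.2 and 44.2 of 10000 reads at 0 g/kg, against 35.6 and 34.7 at 0.4 g/kg. The median difference, 0.4 minus 0 g/kg, was −0.25, with 0 genes at an unadjusted limma p under 0.05 upward and 5 downward. Asns was at 49.8 and 56.2 FPKM without valine (−1.64 ± 0.68 for 0.4 minus 0 g/kg), Pck2 at 30.0 and 24.8 (−1.01 ± 0.29) and Atf5 at 34.9 and 45.1. Shmt2, at 220 and 196 FPKM without valine, overlapped its values of 226 and 203 at 0.4 g/kg.

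Several stress and early response genes had higher values on the valine-free diet than at 0.4 g/kg. Hspa1a was at 140.0 and 214 FPKM without valine (−1.08 ± 0.70 for 0.4 minus 0 g/kg). Ppp1r15a was at 64.3 and 74.7 (−1.59 ± 0.37, limma adjusted p = 0.477), and Fos at 44.7 and 41.2. Immediate early genes had a median difference of −0.63, and 10 of them lay below both valine-free libraries. Neutrophil markers took 5.80 and 2.99 of 10000 reads at 0 g/kg, with S100a9, the partner of S100a8, at 286 and 135 FPKM against 17.7 and 28.2 at 0.4 g/kg, and their part in these differences was not tested.

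Histone and mitosis genes had higher means at 0.4 g/kg than without valine, whereas most S phase genes had lower ones. All 61 tested histone genes had a higher mean at 0.4 g/kg, 57 lay above both valine-free libraries and 51 had an unadjusted limma p under 0.05, with a median difference of 0.64. All 34 mitosis genes had a higher mean, 26 lay above both and 13 had an unadjusted p under 0.05, with a median of 0.51. Of 41 S phase genes 8 had a higher mean, 2 lay above both valine-free libraries and 12 below both, with a median of −0.15, and the list took 85.9 and 74.6 of 10000 reads at 0.4 g/kg against 93.9 and 88.8 at 0 g/kg. Histone genes took 269 and 257 of 10000 reads at 0 g/kg, against 428 and 377 at 0.4 g/kg and 326 and 399 at 8 g/kg. Nuclear complex I subunits had a median difference of 0.19 from the valine-free diet, with 5 genes at an unadjusted limma p under 0.05 upward and 1 downward. Other lists had similar medians, with ATP synthase at 0.24, mitochondrial ribosomal proteins at 0.23, complex IV at 0.22 and the proteasome at 0.19. Complexes II and III were at 0.12, mtDNA-encoded subunits at −0.05 and all tested genes at 0.03. Hes1 was at 119 and 113 FPKM without valine (−1.09 ± 0.26), and Hbb-bs at 9.84 and 7.68 (2.83 ± 0.48, limma adjusted p = 0.32).

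The low-valine diets of 0.4 and 0.8 g/kg were not separated by any called gene either. limma's lowest adjusted p was 0.716, with 315 genes at an unadjusted p under 0.05, 191 higher and 124 lower at 0.4 g/kg, and voom called 0 genes with 246 at an unadjusted p under 0.05, in the reverse balance of 97 higher and 149 lower. Genes were called by limma when the 0.8 g/kg T-ALL 2 library was left out, but that fit has 1 library at 0.8 g/kg. This library, T-ALL 3, was the shallowest of the 8, with 364685 reads and 15.7% of genes at 0 reads. The ATF4 list took 28.0 and 37.4 of 10000 reads at 0.8 g/kg, with T-ALL 2 near the controls and T-ALL 3 above the 0.4 g/kg libraries. Asns showed the same split, at 8.22 FPKM in T-ALL 2 and 46.8 in T-ALL 3. Hspa1a was at 16 and 3.07 FPKM at 0.8 g/kg, on either side of the controls (11.8 and 4.37) and below both libraries at 0.4 g/kg.

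Ribosome footprints from the same samples, sequenced as ribosome-protected fragments (RPF), give a second reading of the named genes on far fewer reads. The RPF libraries held 140641 and 58529 reads at 0.4 g/kg and 41848 and 71432 at 8 g/kg, and their values are given with no test. Hspa1a had 21 and 45 RPF reads against 2 and 1, or 49.6 and 230 FPKM against 14.2 and 4.16. Pck2 had 12 and 6 reads against 2 and 2, which are not corrected for the unequal library sizes. Tapbpl had 9 and 2 reads against 5 and 16, or 26.8 and 12.9 FPKM against 44.8 and 84.0, on the same side of the controls as in total RNA. Asns had 11 and 0 reads against 1 and 0, too few to place. Shmt2 was at 368 and 223 FPKM against 174 and 252, with overlapping groups. Hsp90b1 was at 246 and 155 RPF FPKM against 45.8 and 95.8, above both controls. Cars, from 12, 1, 1 and 5 reads, was at 26.1 and 4.70 RPF FPKM against 6.54 and 19.2, with overlapping groups. The ATF4 list took 50.5 and 38.8 of 10000 RPF reads at 0.4 g/kg and 33.9 and 40.5 at 8 g/kg. Its groups overlapped as well.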

How the data were processed

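The authors deposited 1 table of FPKM for 12012 genes in 16 libraries made with Illumina's TruSeq Ribo Profile kit, per the labels' protocols. Per the submitters' processing notes the tools were STAR 2.5.0c, Bowtie2 2.3.4, edgeR 3.14.0 and cutadapt 1.18, and the builds GRCm38 and mm10. What each tool did, and the FPKM formula, is not given in the sources used here. Whole reads were recovered from steps in the deposited FPKM, and 100.0% of the 149988 nonzero values lay within 0.02 of a whole read. The floor of 3 reads covers counting error only.

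limma 3.58.1 in R 4.3.3 with trended moderation was fitted to all 8 total RNA libraries on log2(FPKM + 0.5), diet being a factor of 4 levels, so standard errors and 95% intervals pool the spread between libraries of all diets. Tests were two-sided with Benjamini-Hochberg adjustment at 0.05 over 10054 genes. An exact 2 against 2 permutation test cannot go below 0.333 and was not run. limma and the read recovery were tested on simulated data. The 40 gene lists were described by counts and medians over tested members, and by shares of reads over all members in the table. Members and lists were chosen with earlier results of these data known.

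Named genes were up to 12 per direction past the test, filled with the lowest p among genes with an absolute log2 difference of at least 1, the same sign in both T-ALLs and a mean of at least 10 reads. Up to 4 members per list with the lowest p and a fixed set were added, 206 in all. A selection of them is printed, and some genes are not reported here. Positions and symbols follow RefSeq (GRCm38.p6), which held 11383 of 12012 symbols. Alternatives were the pseudocount, the filter, median centring, equal depth, voom, the T-ALL number as a block, the 4 libraries alone and leaving out each library.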

Additional observations from a re-analysis of the deposited data

Results flagged for a closer look

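Some values moved in opposite directions in the T-ALLs between 0.4 and 8 g/kg valine. With 1 library per T-ALL and diet the differences between the T-ALLs were not tested. Trib3, on 1 to 3 reads a library, had a log2 difference of −0.838 in T-ALL 2 and 1.23 in T-ALL 3. Ptcra was at 1.16 in T-ALL 2 and −1.6 in T-ALL 3, and Rag1 at 1.17 and −1.42. Both are genes of pre-T cell receptor assembly, measured at more than 10 FPKM in each of the 4 libraries.

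Among the lists, immediate early genes had a median log2 difference of −0.188 in T-ALL 2 and 0.832 in T-ALL 3. B cell markers had 1.24 and −0.134, over 6 tested genes. Stromal and endothelial markers had −0.283 and 0.141, also over 6 tested genes.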

How the results depend on the processing

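No gene was called between 0.4 and 8 g/kg, and limma with the T-ALL number as a replicate block also called 0 genes, with 347 at an unadjusted p under 0.05. The count was 0 with pseudocounts of 0.1 and 1, without the filter, with a mean FPKM of at least 5, with median centring, with voom, at equal depth, with only the 4 libraries, and, leaving out each library in turn, from 0 to 0. voom with the replicate block called 1 gene, Hspa1a. Deviations of same-numbered libraries correlated at −0.0224 between 0.4 and 8 g/kg, −0.0396 between 0.4 and 0.8, 0.102 between 0.4 and 0, 0.11 between 0.8 and 0, 0.208 between 0 and 8 and 0.25 between 0.8 and 8, so same-numbered libraries did not deviate together in every pair of diets. Against 0 g/kg voom called 1, the 4 libraries alone 1, voom with the replicate block 13, and leaving out a library gave 0 to 4. Against 0.8 g/kg leaving out a library gave 0 to 27. Over 104 genes, 1114 of 1143 alternative log2 differences kept their direction and their side of the threshold. The 28 that turned belong to 14 genes. Leaving out a library in turn gave Trib3 −0.51 to 0.90, Slc7a5 −0.24 to 0.30, Ddit3 −0.37 to 0.17, Vars −0.021 to 0.11, Ndufs1 −0.054 to 0.20 and Notch1 −0.33 to 0.092. It gave Dtx1 −0.17 to 0.043, Ptcra −1.02 to 0.58, Cd3e −0.57 to 0.28, Rag1 −1.23 to 0.97, S100a9 −0.0058 to 0.71, Pdgfrb −0.31 to 0.089 and Alas2 −1.36 to 0.40. At equal depth Ddit3 was 0.92, Vars −0.018, Bckdha 0.13 and Rag1 0.073. With voom Ptcra was 0.036 and Rag1 0.047, and with voom and the replicate block 0.035 and 0.044. These alternatives change the samples or reads used, and further causes were not tested. voom with the replicate block was chosen after seeing the data. The ATF4 list kept a median of 0.41 to 0.56, mitosis 0.23 to 0.40 and assembly factors of complex I −0.31 to −0.147 under the alternatives run on lists. Genes with a mean under 10 FPKM had intervals with a median half-width of 1.29, and the part of depth in this was not tested.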
